A study of Mus musculus with 28 samples.

Results

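BMP3 given to mouse small-intestinal organoids was compared with untreated organoids of the same table. There were 3 BMP3 samples, numbered II, III and IV in their titles, and 4 untreated controls, numbered II, III, IV and VI. These 7 samples belong to the 20 of the BMP table and the 28 of the whole series, and they were chosen by their titles alone. Organoids are epithelial cultures grown from intestinal crypts in a gel matrix. All 7 samples were wild type, of the strain C57BL/6. Crypts were seeded for 48 h in ENR medium without any BMP or TGFb ligand, freed of debris and put into fresh gel, and recombinant BMP3 was then present at 500 ng/ml for 24 h. The controls are labelled untreated, and the labels record no vehicle. Expression was measured by mRNA sequencing with single-end reads of 75 nt. The working label of this comparison was that of an inert ligand, and the question was how large an effect on BMP targets and on crypt, enterocyte and secretory genes these samples leave possible.

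Bone morphogenetic proteins are secreted ligands that bring type I and type II receptor kinases together. The receptors phosphorylate the transcription factors Smad1, Smad5 and Smad9, which join Smad4 and act on target genes such as the Id family. In the small intestine, BMP activity is low around the crypt, where stem cells divide, and high along the villus, where enterocytes mature. BMP3 is an unusual member of the family. It binds activin type II receptors and is best known from bone, where it opposes other BMPs.

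The 7 libraries held 21622730 to 24782501 reads, as recovered from the deposited normalized counts, and 1 read was worth 0.826 to 0.889 normalized counts. Between 22268 and 22790 genes had at least 1 read. Pearson correlations of log2 values between libraries were 0.978 to 0.986 among BMP3 samples, 0.972 to 0.983 among controls and 0.972 to 0.989 between the groups. The epithelial label held in every library. Summed normalized counts of 7 epithelial markers (among them Epcam, Cdh1 and the keratins) were 110960 to 123050 with BMP3 and 108780 to 123300 in controls. The 6 mesenchymal markers in the table, of 8 listed, summed to 5.34 to 29.8 with BMP3 and 6.22 to 40.8 in controls, and 6 immune markers summed to 39.7 to 57.9 and 43.7 to 63.1. The labels do not say whether samples of a group came from separate mice or cultures, so p-values measure the spread between these samples, which may be technical. They also do not assign samples to sequencing runs, so a run effect was not tested.

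Few genes separated BMP3 from the controls after adjustment over all genes. Of 14481 genes with a mean of at least 10 normalized counts, 6 (0.0414%) passed an adjusted p of 0.05 by limma with Benjamini-Hochberg adjustment, 4 higher and 2 lower with BMP3. An unadjusted p under 0.05 was found for 163 genes (1.13%), and the values of the 2 groups did not overlap for 370 genes (2.56%). In unpaired samples without any effect, these shares would be about 0.05 and 0.0571. Both observed shares were smaller, so neither measures how small the effect of BMP3 is. Same-numbered BMP3 and control samples deviated together from their group means. A fit with the replicate number as a block therefore compares BMP3 with its own control in the pairs II, III and IV, while control VI, which has no BMP3 partner, adds nothing to the difference. With this replicate block, 15 genes (0.104%) passed, 8 higher and 7 lower, and these 15 held all 6 genes of the unblocked fit. Both counts rested on the fit and on single libraries. With the spread taken from all 20 samples of the table, 0 genes passed by limma in either fit, with an unadjusted p under 0.05 for 90 genes without the block and 231 with it. On recovered reads, edgeR called 2 genes and DESeq2 9 without the block, and 47 and 27 with it. Leaving out BMP3 II, III or IV left 2 calls each without the block. With the block there was 1 call without BMP3 II and 2 without control II, and 26 to 29 without BMP3 III, control III or control VI. In the blocked fit of all 7 libraries, an unadjusted p under 0.05 was found for 1649 genes (11.4%), a share above 0.05. Of these, 1020 (7.04%) were higher and 629 (4.34%) lower with BMP3. No BMP target, BMP pathway component, activin or TGFb target, crypt, proliferation, enterocyte, villus tip, Paneth, goblet, enteroendocrine or tuft gene of the lists was among the calls of either fit.

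The size of effect that these samples leave possible is given by the 95% confidence interval of each gene's log2 difference, which limma computes per gene and which is not adjusted for the number of genes. Without the block, the interval lay inside a 2-fold change in either direction for 12777 of 14481 genes (88.2%) and inside 1.5-fold for 10225 (70.6%). With the block, the counts were 13590 (93.8%) and 11674 (80.6%). The blocked fit left 2 residual degrees of freedom per gene, beside 5 without the block. With the block and the spread of all 20 samples, the counts were 12966 and 10440. The size of effect left possible thus depended on the spread used. When each interval was widened to cover all 14481 genes at once, 3835 genes remained inside 2-fold without the block and 8903 with it. Precision differed with expression level. At a mean of 10 to 50 normalized counts, 52.1% of genes had an interval inside 2-fold and 4.74% inside 1.5-fold. At 200 to 1000 normalized counts, the shares were 98.2% and 91.7%, with a median half-width of 0.24 on the log2 scale. The block narrowed that median to 0.13. Above 5000 normalized counts the median half-width without the block, 0.24, was wider than the 0.19 at 1000 to 5000, and 89.9% of genes had an interval inside 1.5-fold, beside 95.8%.

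**Figure D1:**
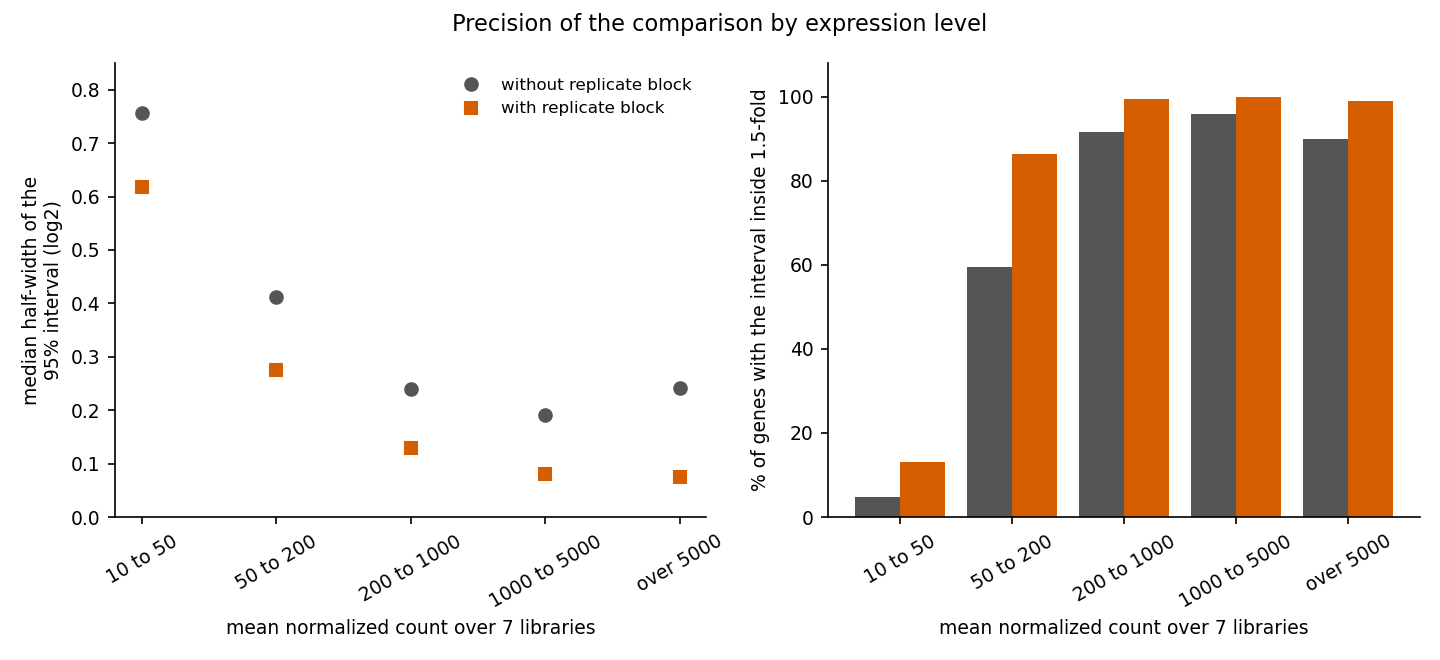
Precision of BMP3 against control by mean normalized count over the 7 libraries (horizontal axes). Left, the median half-width of the 95% interval in log2 units; right, the percentage of genes whose interval lies inside 1.5-fold, without (grey) and with (orange) the replicate block. The half-width fell from 0.76 at 10 to 50 normalized counts to 0.19 at 1000 to 5000 without the block, and from 0.62 to 0.08 with it, and above 5000 it was 0.24 without the block and 0.07 with it.

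BMP targets stayed at control level in the BMP3 samples. Id1, a direct Smad target that encodes an inhibitor of helix-loop-helix transcription factors, had normalized counts of 127, 136 and 124 with BMP3 (II, III and IV) and 114, 112, 134 and 171 in the controls (II, III, IV and VI). The BMP3 values lay within the range of the controls. The log2 difference was -0.02 with an interval of -0.40 to 0.36, so that a rise above 1.28-fold or a fall below 0.759 of control lay outside it. The upper bound was 1.28-fold with the block too. Blocked with the spread of all 20 samples, the Id1 interval was -0.37 to 0.44. Its paralog Id2 had 358, 377 and 319 with BMP3 and 413, 421, 241 and 310 in controls, again with the groups overlapping, and an interval of -0.39 to 0.49. Id3 was low, at 27.6, 37.2 and 16.6 against 33.7, 29.9, 20.4 and 32.2, and its interval of -0.86 to 0.58 was correspondingly wide. Id4 had the interval -1.03 to 0.61. The block gave intervals of -0.25 to 0.27 for Id2, -0.60 to 0.43 for Id3 and -0.71 to 0.27 for Id4.

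The inhibitory Smads gave less even precision. Smad7, which blocks receptor signalling and is itself induced by it, had 102, 98.8 and 163 normalized counts with BMP3 and 103, 106, 145 and 160 in controls, with an interval of -0.63 to 0.43. Smad6, which acts mainly on BMP signals, had 19.6, 45.6 and 11.4 with BMP3 and 12.4, 32.4, 8.87 and 36.3 in controls. It was higher with BMP3 in each of the 3 pairs, and the groups overlapped. Its interval was the widest of the list, -1.19 to 1.55 without the block and -0.06 to 1.01 with it, so a rise of up to 2.93-fold without the block, or 2.02-fold with it, remained inside. Bambi, a decoy receptor, had an interval of -0.67 to 0.91, and Atoh8, a transcription factor, one of -0.92 to 0.39. The block gave intervals of -0.22 to 0.26 for Smad7, -0.39 to 0.38 for Bambi and -0.53 to 0.40 for Atoh8. Blocked with the spread of all 20 samples, the Smad6 interval was -0.397 to 1.025.

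Of the 11 BMP targets listed, 8 passed the filter on low values, and 6 of these 8 had an interval inside 2-fold and 2 inside 1.5-fold. With the block, 7 lay inside 2-fold and 5 inside 1.5-fold. The median log2 difference of the 8 was -0.06 without the block and 0.00 with it, beside 0.01 for all genes tested in both fits. None reached an unadjusted p of 0.05 in either fit. Smad9, Msx1 and Msx2 were below the filter in these 7 samples. Msx1, a homeobox gene that BMPs induce, had 3.56, 4.22 and 8.75 with BMP3 and 6.22, 4.15, 5.32 and 3.30 in controls.

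**Figure D2:**
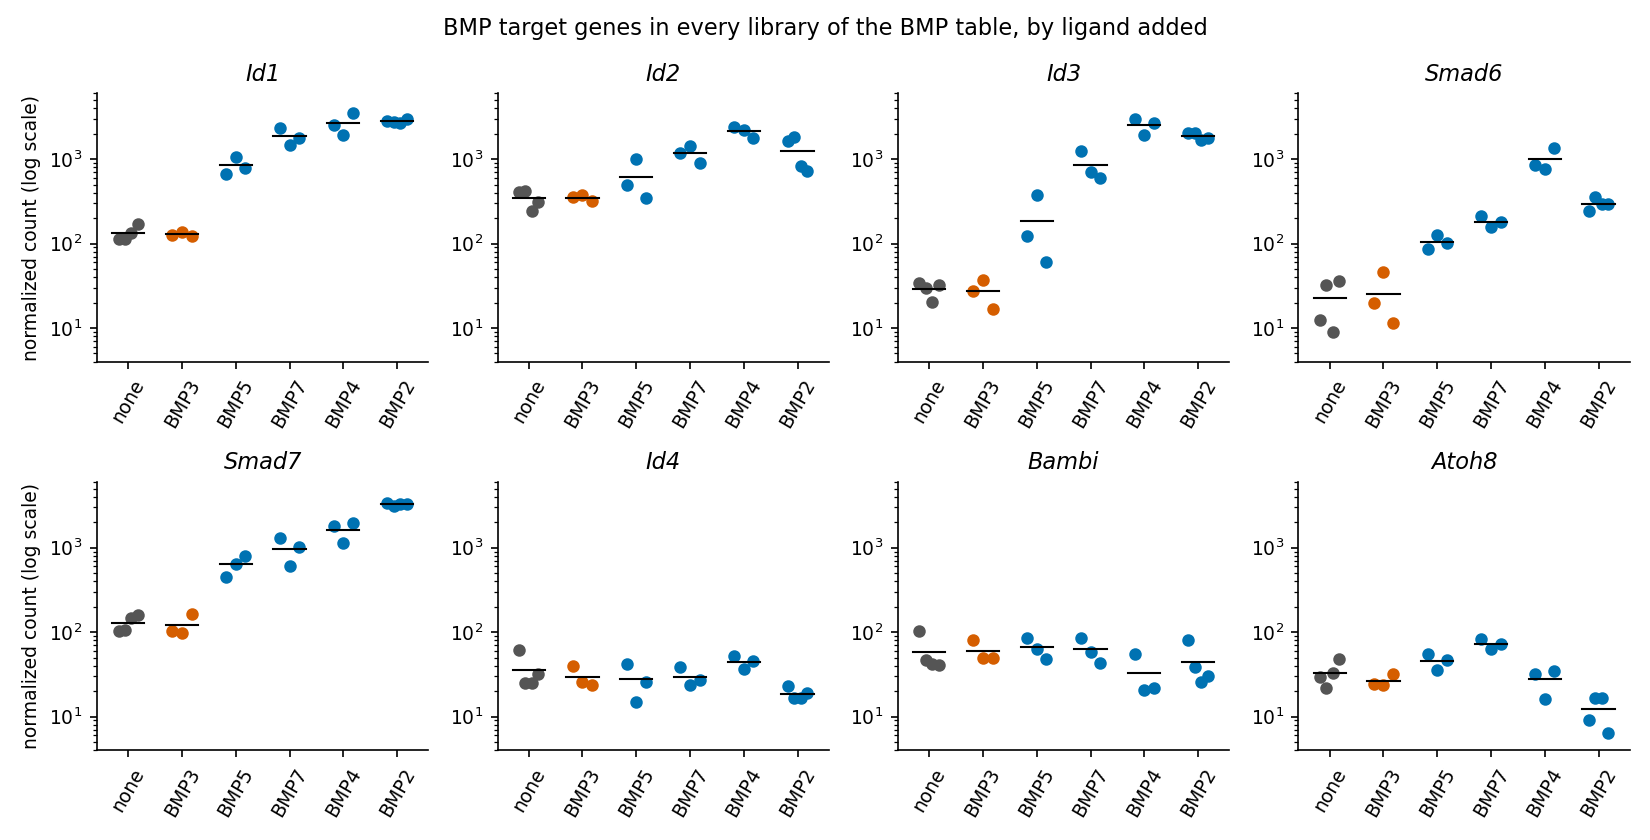
Normalized counts (log axis) of 8 BMP targets in each of the 20 libraries of the BMP table, by ligand added (none, untreated control). Points are libraries and lines are group means. BMP3 (orange) lay at the level of the untreated controls (grey) for Id1, Id3, Smad6 and Smad7, where the means of the other ligands (blue) were higher.

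The other ligands of the table, given at the same dose and time, show what a response of these targets looked like. Id1 had a mean of 2810 normalized counts in the 4 BMP2 samples (SD 115), 2677 in the 3 of BMP4 (SD 782), 1870 in the 3 of BMP7 (SD 429) and 843 in the 3 of BMP5 (SD 206). Its mean was 129 ± 6.25 with BMP3 (SD, n = 3) and 133 ± 27.4 in controls (SD, n = 4). Direct tests used 1 limma fit over all 20 samples and 14746 genes. Id1 was lower with BMP3 than with BMP2 by a log2 difference of -4.43 ± 0.19 (SE, limma adjusted p = 1.63e-12), than with BMP4 by -4.32 ± 0.21 (SE, adjusted p = 1.73e-11) and than with BMP5 by -2.67 ± 0.21 (SE, adjusted p = 2.24e-07). Every BMP3 sample lay below every sample of these 3 ligands.

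The same direct tests were read for all targets. Of 10 targets that passed the filter over 20 samples, 7 were lower with BMP3 than with BMP2, with Atoh8 higher by 1.15 (limma adjusted p = 0.00555). Against BMP4 there were 7 lower and 0 higher, and against BMP5, the weakest of these 3 ligands on Id1, 5 lower and 0 higher. The median log2 difference of the 10 targets was -2.96, -3.83 and -1.0 in turn. Over all genes, 73.5% differed between BMP3 and BMP2, 63.6% between BMP3 and BMP4 and 23.7% between BMP3 and BMP5, with medians of 0.03, -0.03 and 0.03. BMP3 was not tested against BMP7. Olfm4, a marker of crypt stem cells, was at 89630 ± 13340 with BMP3 (SD, n = 3) and 193 ± 238 with BMP2 (SD, n = 4), a log2 difference of 9.5 (limma adjusted p = 2.01e-11). It was higher than with BMP4 by 5.50 (limma adjusted p = 1.50e-07). The difference from BMP5 was 1.34 with an interval of 0.14 to 2.54 and did not pass (limma adjusted p = 0.101). Sis, the enterocyte enzyme sucrase-isomaltase, was higher with BMP3 than with BMP2 by 3.74 (limma adjusted p = 9.84e-09) and than with BMP5 by 1.5 (limma adjusted p = 0.00524), and lower than with BMP4 by a log2 difference of -1.95 (limma adjusted p = 0.000113).

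The receptors and Smads that would carry a BMP signal were present and differed little between BMP3 and control. Of 32 pathway components listed, 21 passed the filter, and 20 of these had an interval inside 2-fold and 18 inside 1.5-fold. Their median log2 difference was 0.03 in both fits. Bmpr1a, the main BMP type I receptor of the epithelium, had 4940, 4880 and 4310 normalized counts with BMP3 and 4940, 4660, 4000 and 4250 in controls, with an interval of -0.13 to 0.29. Smad4, the partner of the receptor-activated Smads, had 2790, 2550 and 2590 against 2640, 2600, 2510 and 2550 and the narrowest interval of the list, -0.10 to 0.17. Both genes overlapped between the groups. Bmpr2, the BMP type II receptor, had the smallest p of the list and an interval of -0.07 to 0.45. The type II receptors of activin, to which BMP3 binds, were Acvr2a at 1030, 999 and 1130 against 1020, 970, 1090 and 1050, and Acvr2b at 109, 97.2 and 105 against 126, 124, 127 and 89.2. Acvr2b was lower in each of the 3 pairs, with a log2 difference of -0.28 and an interval of -0.51 to -0.04 with the block, which did not pass (limma adjusted p = 0.397).

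No ligand or antagonist gene passed the test in either fit. Bmp3 itself was expressed by the organoids, at 1360, 1130 and 1190 normalized counts with added BMP3 and 1330, 1000, 1290 and 1020 in controls, with an interval of -0.19 to 0.37. The endogenous transcript thus overlapped between the groups. It was lower with every other ligand, at 21.3 ± 4.88 with BMP2 (SD, n = 4) and 159 ± 92.6 with BMP5 (SD, n = 3), values given here without a test. Fst, the activin antagonist follistatin, was near the filter, at 8.45 to 13.3 with BMP3 and 9.76 to 12.4 in controls, and had the widest interval, -0.64 to 0.70. Fstl3, a follistatin-like antagonist of activin, had 12.5, 15.2 and 14.0 with BMP3 and 27.5, 15.8, 17.7 and 18.2 in controls. It was lower in each of the 3 pairs and was the only gene of the list whose groups did not overlap, with a log2 difference of -0.45 and an interval of -1.08 to 0.17, which did not pass (limma adjusted p of 1.00 without the block and 0.557 with it). The antagonist Nog had no read in the 7 libraries, which allows up to 3 reads in each, by counting error only.

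Targets of activin and TGFb, the other arm of the superfamily, also showed no call. All 11 listed genes passed the filter, and 9 had an interval inside 2-fold without the block and 11 with it. The median log2 difference was -0.03 without the block and 0.03 with it. With the block, 2 of 11 had an unadjusted p under 0.05 and were higher, beside 7.04% of all genes, and 0 were lower. Tgif1, a Smad corepressor, had 1180, 1200 and 1250 with BMP3 and 1250, 1290, 1200 and 1210 in controls, and an interval of -0.17 to 0.10. Itgb6, an integrin subunit that activates TGFb, had the smallest p without the block and an interval of -0.16 to 0.42. Ccn2, a matrix-associated growth factor, had the widest interval, -1.28 to 1.18, and sample II was high in both groups (349 with BMP3 and 437 in the control). The block narrowed it to -0.45 to 0.28.

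No crypt or cell-cycle gene passed the test in either fit. Olfm4 had 81100, 82800 and 105000 normalized counts with BMP3 and 85700, 84000, 110000 and 91100 in controls, with an interval of -0.45 to 0.35 without the block and -0.17 to 0.06 with it. With the block and the spread of all 20 samples, the Olfm4 interval was -0.86 to 1.18. Lgr5, the Wnt-dependent stem cell receptor, had 5440, 5560 and 3120 against 5210, 5050, 3150 and 3950. In both genes sample IV stood apart from II and III in the same direction in BMP3 and control, and the groups overlapped. The Lgr5 interval was -0.45 to 0.65 without the block and -0.02 to 0.14 with it. With the block and the spread of all 20 samples it was -0.60 to 0.77. All 16 crypt genes had an interval inside 2-fold without the block, 14 of them inside 1.5-fold, and all 16 lay inside 1.5-fold with the block. Cdca7 had the narrowest interval, -0.07 to 0.21, and Tnfrsf19 the widest, -0.61 to 0.79. The block narrowed that of Tnfrsf19 to -0.17 to 0.09. Cd44, a Wnt target and adhesion receptor, had the smallest p, at 4320, 3640 and 4120 against 4000, 3350, 3590 and 3460. It was higher in each of the 3 pairs by a log2 difference of 0.14 with an interval of 0.07 to 0.22 with the block, and did not pass (limma adjusted p = 0.211). Of the 16 crypt genes, 3 were higher and 1 lower at an unadjusted p under 0.05 with the block. The shares of all genes were 7.04% and 4.34%. In bulk samples, a change in the number of cells of a type and a change in RNA per cell cannot be told apart.

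Every proliferation gene had an estimate above control, by little. The 12 genes, of DNA replication and mitosis, had log2 differences of 0.06 to 0.25 and a median of 0.09 without the block. In all 3 pairs, 10 of 12 were higher, beside 2826 of 14481 genes tested. With the block the median was 0.08, and 7 of 12 had an unadjusted p under 0.05 and were higher, beside 7.04% of all genes. None passed after adjustment over all genes. Top2a, the topoisomerase of dividing cells, had 13100, 12900 and 12000 with BMP3 and 12000, 10900, 11700 and 9080 in controls. The lowest BMP3 value equalled the highest control at the 3 digits deposited. Its interval was -0.02 to 0.47 without the block and 0.04 to 0.23 with it. Mki67, the marker of cycling cells, had the widest interval, -0.19 to 0.69, and Cdc20, an activator of the mitotic ubiquitin ligase, the narrowest, -0.09 to 0.22. All 12 intervals lay inside 2-fold without the block and inside 1.5-fold with it.

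No enterocyte gene of the list passed in either fit, and the block narrowed their intervals. Slc6a19, a brush-border transporter outside the list, was lower by a log2 difference of -0.49 with the block and passed there (limma adjusted p = 0.0219). Sis had 15400, 18400 and 31300 normalized counts with BMP3 and 16700, 16200, 37500 and 27900 in controls. Sample IV was the highest in each group, and control VI followed it. The interval was -0.94 to 0.63 without the block and -0.23 to 0.10 with it. With the block and the spread of all 20 samples it was -0.78 to 0.56. Of 25 enterocyte genes, 18 had an interval inside 2-fold and 4 inside 1.5-fold without the block, and 25 and 24 did with it. The median log2 difference was -0.16 without the block and 0.02 with it, and 18 of 25 estimates were below control without the block and 9 of 25 with it. Single libraries moved the unblocked median, which was -0.30 without BMP3 IV, -0.28 without control II, -0.26 without control III, -0.11 without BMP3 III, -0.08 without control IV, 0.01 without BMP3 II and 0.02 without control VI. Control VI, the sample that enters the first of these only, held the highest control value of Fabp1, 19600, beside 10800 to 13900 in the other controls.

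Single enterocyte genes had unadjusted p-values under 0.05 in both directions with the block, 5 higher and 4 lower of 25. Of all genes, 7.04% were higher and 4.34% lower by this measure. Alpi, intestinal alkaline phosphatase, had 7760, 8010 and 10700 with BMP3 and 8910, 9480, 11600 and 13400 in controls. It was lower in each pair by a log2 difference of -0.19, with an interval of -0.27 to -0.11 (limma adjusted p = 0.160). Apoa4, an apolipoprotein of lipid absorption, had 6240, 9320 and 8000 with BMP3 and 5210, 7070, 7170 and 15700 in controls. It was higher in each pair by 0.27, with an interval of 0.17 to 0.38 (limma adjusted p = 0.109), while control VI lay above all BMP3 values. Dpp4, a brush-border peptidase, had the narrowest unblocked interval, -0.10 to 0.31. Slc10a2, the ileal bile acid transporter, had the smallest unblocked p and an interval of -0.07 to 0.86. Lct, the lactase gene, had the widest, -1.0 to 1.38, with 116, 323 and 389 against 104, 176, 392 and 292. Its blocked interval was -0.01 to 0.69.

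No gene of the villus tip list passed in either fit. Of 10 genes, 9 had an interval inside 2-fold and 7 inside 1.5-fold without the block. Egfr, the receptor for epidermal growth factor, had 1560, 1470 and 1450 with BMP3 and 1510, 1370, 1340 and 1170 in controls, with the narrowest interval of the list, -0.05 to 0.36. Nt5e, a cell-surface nucleotidase, was low, at 23.1, 18.6 and 54.3 against 23.1, 9.13, 27.5 and 14.9, and its interval of -0.37 to 1.77 left a rise of more than 2-fold possible. The groups overlapped for both genes. With the block, 4 of the 10 had an unadjusted p under 0.05 and were higher, beside 7.04% of all genes, and 0 were lower. The median log2 difference was 0.03 without the block and 0.07 with it.

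No Paneth, goblet, enteroendocrine or tuft gene of the lists passed in either fit. Lyz1, the lysozyme of Paneth cells, had 48500, 48700 and 42600 with BMP3 and 57600, 47800, 47000 and 45000 in controls, with an interval of -0.38 to 0.22. All 9 Paneth genes had an interval inside 2-fold and 8 inside 1.5-fold. Mmp7, the protease that activates defensins, had the narrowest, -0.25 to 0.21, and Pla2g2a, a secreted phospholipase, the widest, -0.24 to 0.66. The alpha-defensin Defa30 had the smallest p and an interval of -0.42 to 0.05. Another alpha-defensin, Defa20, was not on the list. It was lower by a log2 difference of -0.27 with the block and passed there (limma adjusted p = 0.0346). Of 9 goblet genes, 8 had an interval inside 2-fold. The exception was Muc2, the main gel-forming mucin, with 3870, 3990 and 5520 against 3360, 3110, 7270 and 1860, and an interval of -0.53 to 1.24 without the block and -0.22 to 0.33 with it. Spdef, a transcription factor of goblet cells, had 203, 197 and 198 against 220, 212, 204 and 213. These values did not overlap, and the interval was -0.29 to 0.11.

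The 11 enteroendocrine and 6 tuft genes that passed the filter, of 13 and 7 listed, all had intervals inside 2-fold. Cck, a gut hormone, had the narrowest of the enteroendocrine genes, -0.34 to 0.26, and Ghrl, which encodes ghrelin, the widest, -0.74 to 0.54. Tph1, the enzyme of serotonin synthesis, had the smallest p and an interval of -0.09 to 0.68. Gcg, which encodes the incretin GLP-1, had 816, 681 and 501 with BMP3 and 678, 598, 389 and 554 in controls. It was higher in each pair by 0.27, with an interval of 0.16 to 0.39 with the block, and was the only enteroendocrine gene with an unadjusted p under 0.05 there. Among tuft genes, the kinase Dclk1 had the narrowest interval, -0.31 to 0.25, the transcription factor Pou2f3 one of -0.26 to 0.52 and Sh2d6 the widest, -0.87 to 0.67.

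**Figure D3:**
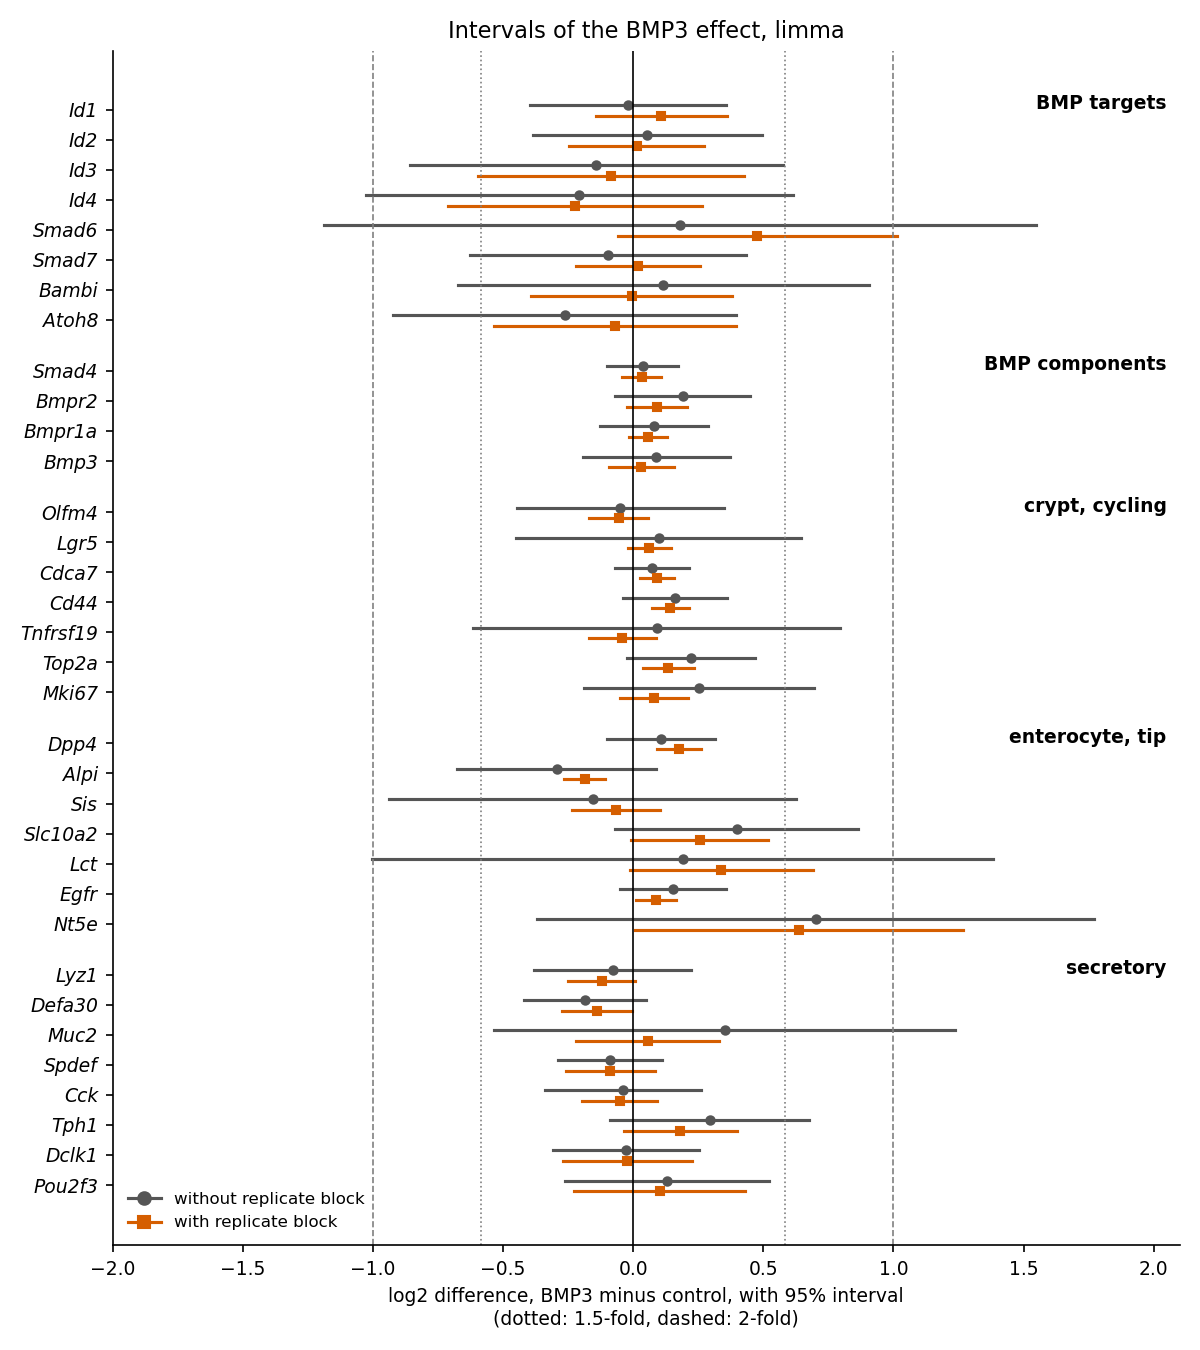
Log2 difference of BMP3 minus control with its 95% limma interval for listed genes of each group, without (grey circles) and with (orange squares) the replicate block. Dotted and dashed lines mark 1.5-fold and 2-fold. Smad6, Id4, Lct, Nt5e and Muc2 cross a 2-fold line without the block, and Smad6 and Nt5e still do with it.

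Of the 6 genes called without the block, 5 were absent from every library of 1 group. H2ac23, a replication-dependent histone H2A gene, had 219, 238 and 364 normalized counts with BMP3 and no read in the 4 controls, at least 106-fold higher when the controls are set to a floor of 3 reads per library (limma adjusted p = 3.07e-05). Its close relative H2ac24 had 42.7, 213 and 45.5 with BMP3 and 183, 348, 159 and 423 in controls, and did not pass. These histone genes are near-identical copies, so the division of reads between them is uncertain. Their sum was 374 ± 99.5 with BMP3 (SD, n = 3) and 278 ± 128 in controls (SD, n = 4), and the means of log2(sum + 1) over the libraries differed by 0.51. H2ac23 was at 0 in 3 of the other 13 libraries of the table, where the division varied between replicates of 1 ligand. With BMP5 it was 227 in sample II, 78.7 in III and 0 in VI.

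**Figure D4:**
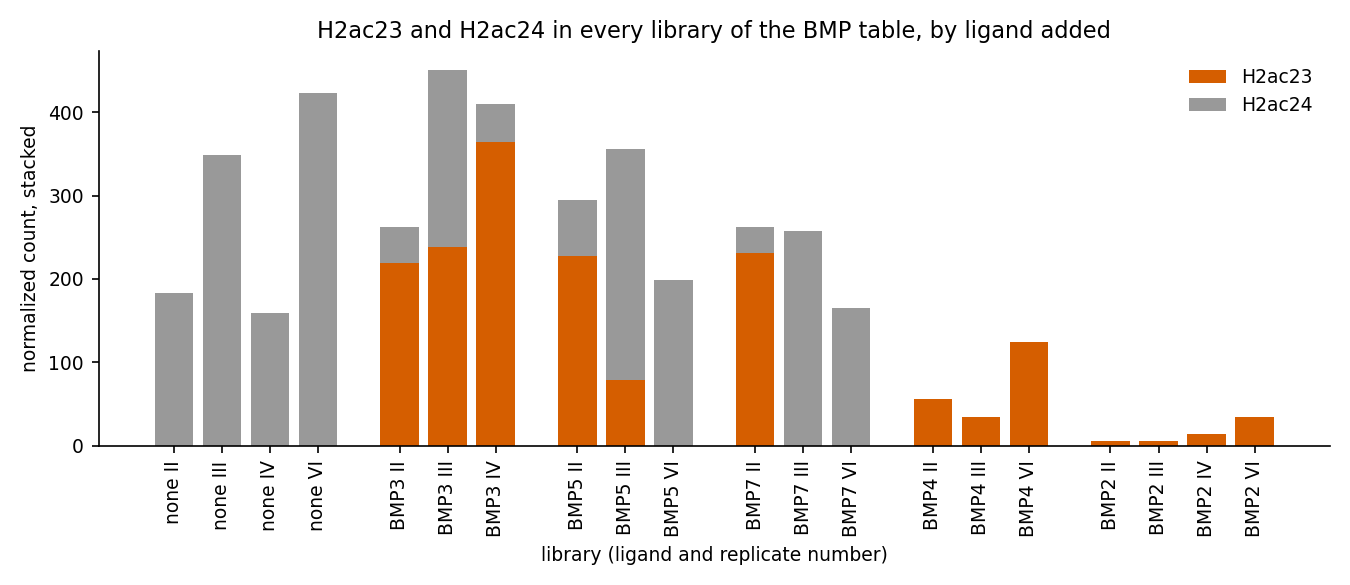
Normalized counts of H2ac23 (orange) and H2ac24 (grey), stacked, in each of the 20 libraries of the BMP table. H2ac23 was at 0 in the 4 untreated controls and at 219 to 364 in the 3 BMP3 libraries, while the summed height ranged from 159 to 451 over these 7 libraries.

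The other all-or-none calls were low and mostly processed pseudogenes, whose reads can also come from their parent genes. Mrps36-ps1 had 42.7, 29.6 and 21.9 with BMP3 and 0 in all controls, at least 12.2-fold higher, and was at 0 in 11 of the other 13 libraries. Gm11223 had 26.7, 18.6 and 30.6 with BMP3 and 0 in all controls, at least 9.83-fold higher, and was at 0 in 9 of 13. In the opposite direction, Gm49337 was at 0 in all BMP3 samples and at 38.2, 26.6, 33.7 and 37.2 in controls, at least 13-fold lower. Gm30970 was at 0 with BMP3 and at 20.4, 10.8, 41.7 and 15.7 in controls, at least 8.49-fold lower. Both were at 0 in some of the other 13 libraries too, Gm49337 in 5 and Gm30970 in 4. Their limma adjusted p-values lay between 0.00129 and 0.0426, and Gm30970 lost its call under 12 of 19 alternatives.

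The only one of the 6 that was expressed in every library was 4933427D14Rik. This protein-coding gene had 173, 182 and 232 normalized counts with BMP3 and 70.1, 54.8, 59.4 and 80.9 in controls, without overlap. It rose by 1.55 ± 0.18 on the log2 scale (SE, n = 3 and 4, limma adjusted p = 0.0426). This call was kept under 8 of 21 alternatives and lost under 13, the leaving out of each single library among them, where the difference was 1.42 to 1.65. With the block the difference was 1.65, with an interval of 1.32 to 1.98. Against the other ligands it did not differ in the direct tests, with intervals of -0.69 to 2.26 for BMP2, -1.05 to 2.09 for BMP4 and -1.34 to 1.81 for BMP5.

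Some genes with a mean of 50 normalized counts or more had groups that did not overlap and yet did not pass. Gm43951 was among the largest of these differences, with 2.67, 34.6 and 20.1 with BMP3 and 96.8, 128, 158 and 154 in controls. 1700016C15Rik had 56.0, 55.8 and 41.1 against 98.6, 106, 59.4 and 97.5, and Gm13340 had 42.7, 49.0 and 36.8 against 78.1, 67.2, 51.5 and 104. In the direction of BMP3, Ppic, a peptidyl-prolyl isomerase of the secretory pathway, had 232, 224 and 270 against 213, 164, 169 and 96.6. Gm10171 had 492 to 537 with BMP3 and 452 to 470 in controls II, III and IV, and was at 0 in control VI. Its interval was -2.24 to 6.98 without the block and -0.02 to 0.33 with it.

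The replicate block added 9 genes, 4 higher and 5 lower with BMP3. All 9 moved the same way in each of the 3 pairs, and the fitted differences were small, down to 0.27 in size. Nox1, a superoxide-producing NADPH oxidase of the gut epithelium, fell from 340 to 223 in pair II, from 290 to 171 in III and from 1130 to 762 in IV, while control VI had 624. The log2 difference was -0.64 ± 0.06 (SE, 3 pairs, limma adjusted p = 0.0130). Slc6a19, the brush-border transporter of neutral amino acids, fell from 706 to 466, from 839 to 657 and from 1290 to 893, with 1660 in control VI, a difference of -0.49 ± 0.05 (SE, limma adjusted p = 0.0219). In both genes the numbered samples differed more than BMP3 and control did, and without the block neither passed. The blocked call of Nox1 was kept under 13 of 17 alternatives and that of Slc6a19 under 11, and those of all 9 genes were lost without BMP3 II.

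Dio1, the thyroid hormone deiodinase, was the only one of the 9 whose groups did not overlap. It had 93.4, 130 and 104 normalized counts with BMP3 and 177, 206, 194 and 206 in controls. With the block it fell by 0.82 on the log2 scale, with an interval of -1.04 to -0.60 (limma adjusted p = 0.0298), and without the block the difference of -0.85 did not pass (limma adjusted p = 0.478). Direct tests placed Dio1 with BMP3 below BMP4 and BMP5, by log2 differences of -1.48 and -1.25, and above BMP2 by 0.85 (limma adjusted p of 0.000497 or less in each). Tent5c, a poly(A) polymerase, and the alpha-defensin Defa20 were lower with BMP3 by log2 differences of -0.30 and -0.27 with the block. The alpha-defensins, Defa30 among them, are near-identical copies, so the count of a single one is uncertain. Hmgn2, a nucleosome-binding protein, was higher by 0.29, at 5680, 4910 and 4420 against 4670, 4020, 3620 and 4160.

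**Figure D5:**
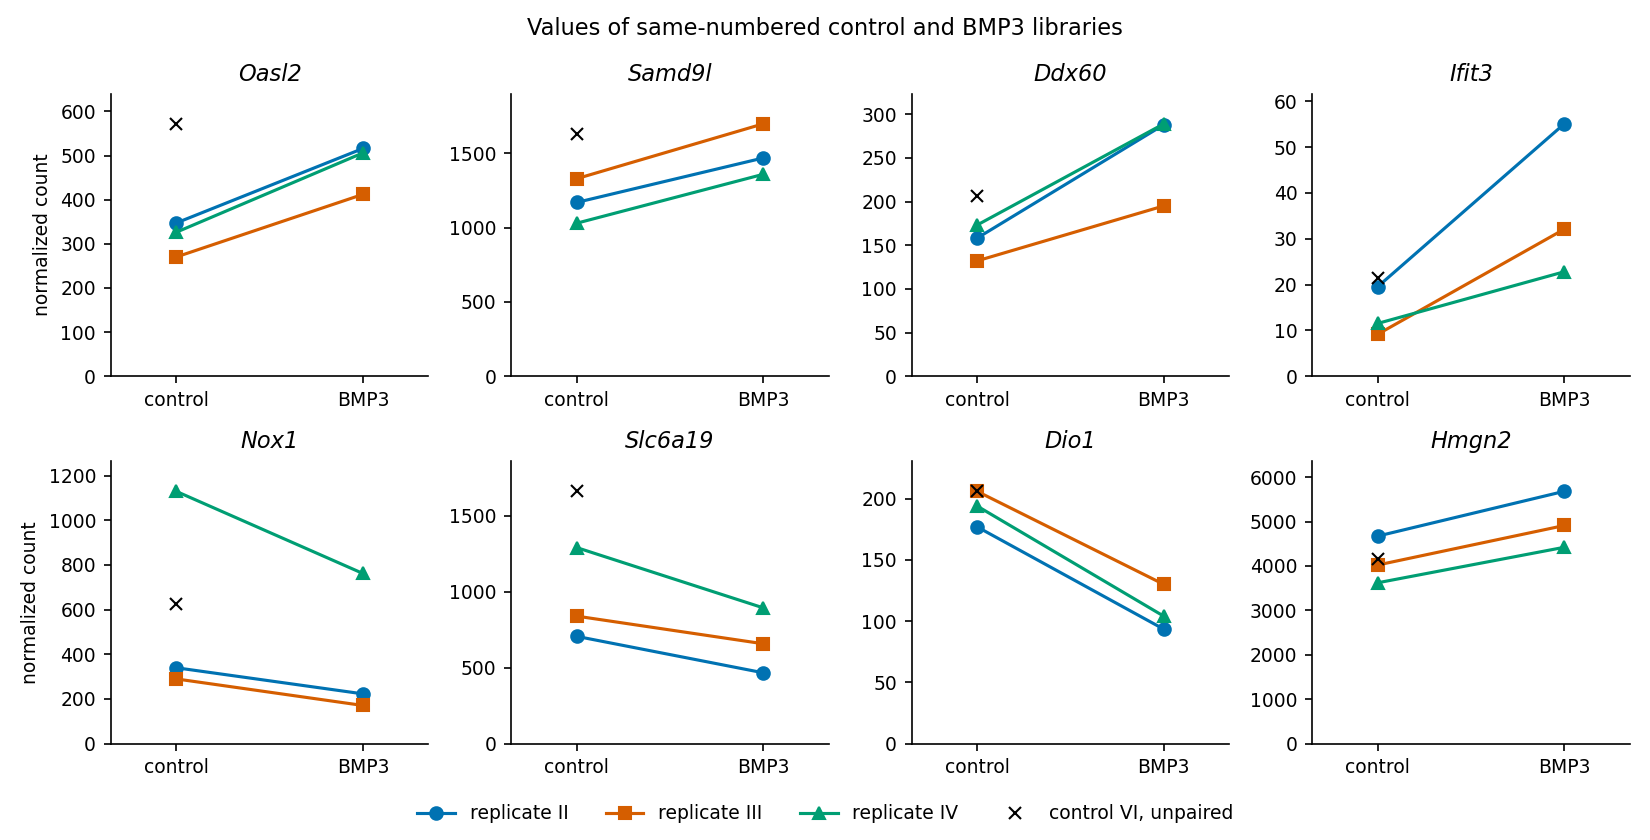
Normalized counts in same-numbered control and BMP3 libraries, joined by a line for each pair (II circles, III squares, IV triangles); the cross is control VI, which has no BMP3 partner. Oasl2, Samd9l, Ddx60, Ifit3 and Hmgn2 were higher with BMP3 in all 3 pairs, and Nox1, Slc6a19 and Dio1 lower. Ifit3 did not pass the test.

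The other 3 genes that rose with the block are induced by interferon. Oasl2, a relative of the antiviral oligoadenylate synthetases, rose from 347 to 516 normalized counts in pair II, from 270 to 412 in III and from 326 to 506 in IV, and control VI, at 572, lay above all of them. The log2 difference was 0.60 ± 0.05 (SE, 3 pairs, limma adjusted p = 0.0108). Samd9l, an antiviral factor, rose from 1170 to 1470, from 1330 to 1700 and from 1030 to 1360, with 1630 in control VI (0.36 ± 0.03, SE, limma adjusted p = 0.0140). Ddx60, a helicase of RNA sensing, rose from 158 to 288, from 132 to 195 and from 173 to 289, with 206 in control VI (0.72 ± 0.09, SE, limma adjusted p = 0.0346). Without the block the groups overlapped for all 3 genes and none passed.

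A list of 33 interferon-response genes was written after these values had been seen, so its counts describe and do not test. Of the 30 that passed the filter, all 30 had a blocked estimate above control, beside 8234 of 14481 genes tested. In all 3 pairs, 28 of the 30 were higher, beside 2826 of the 14481. With the block, 25 of the 30 had an unadjusted p under 0.05 and were higher, beside 7.04% of all genes. The median log2 difference was 0.43 with the block and 0.30 without it, where 2 of 30 had an unadjusted p under 0.05. Blocked with the spread of all 20 samples, some intervals lay above 0, as for Oasl2 (0.17 to 0.97). Others crossed 0, as for Ifit2 (-0.24 to 0.55) and Bst2 (-0.16 to 0.42). Ifit3 had the largest difference, at 55.1, 32.1 and 22.8 with BMP3 and 19.5, 9.13, 11.5 and 21.5 in controls, without overlap. The blocked difference of 1.36 had an interval of 0.78 to 1.94 and did not pass (limma adjusted p = 0.160). Isg15, a ubiquitin-like modifier, had 115, 71.0 and 57.8 with BMP3 and 63.9, 43.1, 36.4 and 74.3 in controls, with a blocked difference of 0.73. BMP3 library II was the highest of the group for both genes. Without BMP3 library II, none of the 15 genes called with the block passed, these 3 included, and the list's blocked median was 0.36.

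These levels were far below those with the other ligands. Oasl2 was at 478 ± 57.4 with BMP3 (SD, n = 3), 5692 ± 937 in the 4 BMP2 samples, 3013 ± 559 in the 3 of BMP4 and 1764 ± 1015 in the 3 of BMP5 (SD). In the direct tests it was lower with BMP3 than with BMP2 by a log2 difference of -3.56 (limma adjusted p = 8.55e-09), than with BMP4 by -2.65 (adjusted p = 2.00e-06, limma) and than with BMP5 by -1.74 (adjusted p = 0.00108, limma). Samd9l and Ddx60 were also lower with BMP3 than with each of these 3 ligands.

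Promoter sequences of the interferon genes were searched for a motif. Interferon acts through a response element whose core is a repeat of GAAA, and the motif searched was GAAA, NN and GAAA in direct succession, on both strands, in windows of 300 bases from 250 before to 50 after each RefSeq gene start (GRCm38.p6). The motif was found in 3.44% of 32851 windows, and in at least 1 window for 3.99% of 27025 genes. Of the 33 interferon genes, 22 had a window in the table and 13 of these (59.1%) held the motif. These genes were listed for their response to interferon, so the share describes the list and says nothing of BMP3. Shown are Ddx60, which passed with the block and holds 2 matches, Ifit3, with the largest difference and 2 matches on the opposite strand, and Isg15, with 3 matches. They are written 5′ to 3′ on the strand of the gene, with the motif in capitals, where overlapping matches run together. The Oasl2 and Samd9l windows held no match, which says only that these letters are not in that stretch.
Ddx60, chr8:61927837-61928136, plus strand: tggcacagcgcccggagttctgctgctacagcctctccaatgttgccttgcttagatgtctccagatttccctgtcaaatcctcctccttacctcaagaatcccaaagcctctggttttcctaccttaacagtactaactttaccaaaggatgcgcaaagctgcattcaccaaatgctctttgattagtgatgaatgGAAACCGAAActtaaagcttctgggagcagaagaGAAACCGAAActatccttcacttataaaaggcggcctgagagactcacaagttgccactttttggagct
Ifit3, chr19:34583279-34583578, plus strand: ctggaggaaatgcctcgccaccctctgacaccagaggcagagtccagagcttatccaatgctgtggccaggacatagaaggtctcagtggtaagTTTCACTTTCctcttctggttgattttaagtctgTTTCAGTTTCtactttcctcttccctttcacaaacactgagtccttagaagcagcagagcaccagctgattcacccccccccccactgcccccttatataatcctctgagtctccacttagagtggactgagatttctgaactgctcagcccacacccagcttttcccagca
Isg15, chr4:156200769-156201068, minus strand: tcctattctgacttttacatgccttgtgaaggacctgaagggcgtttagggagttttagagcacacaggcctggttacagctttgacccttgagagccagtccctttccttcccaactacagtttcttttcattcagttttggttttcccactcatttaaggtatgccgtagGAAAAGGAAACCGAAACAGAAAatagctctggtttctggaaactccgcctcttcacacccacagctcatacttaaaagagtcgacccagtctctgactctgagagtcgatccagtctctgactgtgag

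Mitochondrial transcripts took a smaller share of the reads in the BMP3 libraries. They made up 4.82%, 4.55% and 3.44% of recovered reads with BMP3 and 6.31%, 5.19%, 5.21% and 7.61% in controls, so the groups did not overlap. The mean was 4.27% ± 0.73 (SD, n = 3) against 6.08% ± 1.14 (SD, n = 4), with p = 0.0571 by a two-sided exact permutation test, which is the smallest that 35 splits can give. This test treats the 7 libraries as unpaired. Over the 3 pairs, a two-sided exact permutation test could give no p below 0.25. All 15 mitochondrially encoded mRNAs and rRNAs were lower in each of the 3 pairs, beside 1913 of 14481 genes tested. This list was also drawn up with these values known. The median log2 difference of the 15 was -0.52 without the block and -0.39 with it. With the block, 15 of 15 had an unadjusted p under 0.05 and were lower, beside 4.34% of all genes, and none passed after adjustment over all genes. Blocked with the spread of all 20 samples, the intervals of mt-Rnr1, mt-Rnr2 and mt-Nd3 crossed 0, and those of the others lay below it. mt-Nd4l, a subunit of complex I, had 11700, 9820 and 7590 with BMP3 and 15500, 11400, 11200 and 15800 in controls. The part of this share in the other differences was not tested.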

How the data were processed

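The BMP table deposited by the authors holds a normalized signal, in which each sample's gene counts were divided by its own size factor and written to 3 significant digits. This was read from the values, and the submitters' processing notes name Trim Galore, Salmon and DESeq2 with the build GRCm39, without versions. Low values were whole multiples of 1 step, the worth of 1 read. Of 180721 values above 0 and up to 20 reads, 100% came out whole within 0.06 reads, and 21.0% of values above 0 stand for more reads than 3 digits can hold. Samples were grouped by their titles, and 0 columns were left unmapped.

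limma 3.58.1 (R 4.3.3) was run on log2(value + 1) with an intensity trend. Genes with a mean of at least 10 over the 3 BMP3 and 4 control samples were kept, 14481 of 29413. Tests were two-sided, with Benjamini-Hochberg adjustment over all genes tested and a threshold of 0.05. Log2 differences understate the change of low genes. Floors of 3 reads cover counting error only, since PCR reads are not independent molecules. Direct tests against BMP2, BMP4 and BMP5 used 1 fit of all 20 samples. Alternatives changed the pseudocount, filter, scaling, tool (edgeR 4.0.16, DESeq2 1.42.0), samples in the fit or replicates. The fit was tested on simulated data.

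Replicate numbers come from the titles. Deviations from the group means correlated at 0.498, 0.288 and 0.578 for same-numbered BMP3 and control samples (II, III and IV, across genes) and at -0.457 to 0.082 for other pairs. The numbers were taken to pair the samples, since every same-numbered correlation was over 0.1. Blocked values are therefore given beside the counts of calls and beside part of the single genes. Many single-gene intervals are given without the block only, and the blocked ones can be narrower.

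The comparison and the gene lists were chosen with earlier results of these data known, and the interferon and mitochondrial lists after these values were seen. Genes named by rule were every gene past the threshold, all tested BMP targets, the narrowest interval, widest interval and smallest p of each list, and the 4 largest differences each way among genes whose mean reached 50 and whose groups did not overlap. Other genes were named for their roles after their values were seen. Promoter windows are from RefSeq, and no coordinates come from the deposited tables. The tables of Tgfb-treated organoids and of mesenchymal cells were not used here.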

Additional observations from a re-analysis of the deposited data

Results flagged for a closer look

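In 4 of 61 groups of 4 control values examined, 1 control stood apart from the other controls. Chance does so in about 1 in 20 groups that were not chosen by their values. That rate does not apply here, since several of the genes were named for a wide interval or for groups without overlap. The measure is the gap from the extreme sample to its nearest neighbour divided by the range of the group. It was 0.962 for Gm10171, which had no read in control VI and 452 to 470 normalized counts in controls II, III and IV. It was 0.914 for Bambi, with 102 in control II and 41.3 to 46.5 in the other controls, and BMP3 II was likewise the highest BMP3 sample at 80.0. For Tnfrsf19 it was 0.854, with 588 in control IV beside 267 to 314, and 568 in BMP3 IV. For Ccn2 it was 0.8293, with 437 in control II beside 109 to 165, and 349 in BMP3 II.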

How the results depend on the processing

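No direction of a called gene reversed under any alternative run. Without the block, 6 genes passed. The count was 1 at a mean of at least 50, 2 with edgeR, 15 with the replicate block, 0 with the spread of all 20 samples and 0 with that spread and the replicate block, 47 with edgeR and 27 with DESeq2 in fits with the replicate block, and 2 to 6 when single replicates were left out. Genes with an unadjusted p under 0.05 numbered 163, and 607 with no filter, 105 at a mean of at least 50, 1649 with the replicate block, 90 with the spread of all 20 samples, 1589 with edgeR and 284 with DESeq2 in fits with the replicate block, and 119 to 278 when single replicates were left out. The count of 15 with the replicate block became 0 with no filter, 45 at the same total in every sample, 68 with robust empirical Bayes, 47 with edgeR, 27 with DESeq2, 0 with the spread of all 20 samples and 1 to 29 when single replicates were left out. The cause of these changes was not tested. BMP3 against BMP5 gave 3496 calls, and 2103 to 4079 without single replicates. Counts of intervals inside 2-fold and 1.5-fold stayed within 1.5 times their reported values. The enterocyte median of -0.16 ranged from -0.30 to 0.02 when single replicates were left out, that of the BMP targets, -0.06, from -0.14 to 0.06, and that of crypt genes, 0.06, from -0.03 to 0.10. When single replicates were left out, the medians of Paneth, goblet, tuft, villus tip and activin and TGFb target genes also changed sign. Those of proliferation, enteroendocrine and BMP pathway genes did not. The enteroendocrine median of 0.08 became -0.02 with the block and the spread of all 20 samples. Of the 53 named genes not called without the block, 20 changed sign under at least 1 alternative. For genes of 10 to 50 normalized counts, the median bound of the unblocked interval was 1.98-fold. Only 52.1% of them had an interval inside 2-fold, so larger changes remained possible for the others. Tables normalized separately were not compared.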
